A study of Mus musculus with 8 samples.

Results

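Levels of 8 genes that govern cholesterol uptake, sensing and efflux were followed in mouse embryonic stem cells: Insig1, Insig2, Srebf1, Srebf2, Scap, Stard4, Mylip and Abca1. They are regulators and targets of the sterol-sensing SREBP pathway other than its synthesis enzymes. The genes were chosen from measured values of the same 8 RNA-seq libraries, namely CPM (each gene's counts scaled to a common library size) compared between treatments within each genotype, so those treatment differences are given as a description. All 8 genes are among the 55291 gene symbols of the count tables and among the 16371 that passed the expression filter for testing.

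The cells came from 2 edited lines, labelled E14, in which the splicing factor DHX35 or GPATCH1 carries a dTAG, a degron that the compound dTAG-13 couples to the ubiquitin ligase machinery. Either line received DMSO, the solvent, or 200 nM dTAG-13, and both were harvested after 4 h of treatment, which gives 4 groups of 2 libraries. The series was made to ask how losing either factor affects splicing fidelity. The growth protocol, which mentions R1 cells, lists serum, LIF and the inhibitors PD0325901 and CHIR99021 in the medium of all groups. The methods describe lines grown from single picked colonies and do not say which clones entered the libraries, so genotype and clone cannot be told apart. No untagged line given dTAG-13 was analysed here. The tag acts on the protein, so RNA counts do not measure the depletion itself.

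Depth was similar throughout. Totals for DHX35-dTAG were 12765765 and 14173639 counts under DMSO, then 12014203 and 13197149 under dTAG-13. For GPATCH1-dTAG the corresponding totals were 14663300 and 13353642 counts under DMSO, then 14994173 and 13149257 under dTAG-13. The first DMSO replicate of DHX35-dTAG cells stood apart, with a mean correlation of 0.976 with the other libraries, where each of the others had 0.988 to 0.990. The 2 genes with the highest counts took 3.15% and 1.54% of the DHX35-dTAG DMSO libraries but 12.0% and 20.2% of the DHX35-dTAG libraries in dTAG-13. In GPATCH1-dTAG cells they took 4.23% and 20.9% in DMSO and 1.27% and 2.02% in dTAG-13. The labels do not say that replicates were separate cultures, so p-values measure only the spread between these samples, which may be technical.

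The 8 embryonic stem cell markers that were checked, Pou5f1, Nanog, Sox2, Zfp42, Esrrb, Klf4, Tfcp2l1 and Utf1, were all tested and together gave between 4856 and 5211 CPM in every library. Of 6 fibroblast markers 2 passed the filter, and Postn had 0 counts in all 8 libraries. In bulk RNA, fewer cells of a type and less RNA per cell cannot be told apart.

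As background, SREBP proteins are transcription factors made as membrane precursors in the endoplasmic reticulum. When sterols are scarce, the escort protein SCAP carries them to the Golgi apparatus, where proteases release the active part, which turns on genes of sterol synthesis and uptake. When sterols are abundant, INSIG proteins hold SCAP and its cargo back, and the LXR receptors, which sense oxysterols, turn on genes of efflux and of lipoprotein receptor breakdown.

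Insig1 encodes an INSIG protein and is itself a target of SREBP. In DHX35-dTAG cells, it stood at 64.1 and 63.1 CPM in the DMSO libraries and at 83.7 and 82.8 CPM with dTAG-13. In GPATCH1-dTAG cells, it stood at 65.2 and 62.4 CPM in DMSO and at 86.5 and 83.9 CPM in dTAG-13. All 4 dTAG-13 libraries were above all 4 DMSO libraries, and libraries of the same treatment lay close together whichever line they came from. The mean level was 63.7 ± 1.23 CPM in DMSO and 84.2 ± 1.57 CPM in dTAG-13 (SD, n = 4 each). The fitted log2 difference, dTAG-13 minus DMSO, was 0.39 (SE 0.08) in the DHX35-dTAG line and 0.42 (SE 0.08) in the GPATCH1-dTAG line. Across both lines it was 0.40 (SE 0.05, 95% interval 0.28 to 0.52), a ratio of 1.32. Between the lines the response differed by 0.03 (SE 0.11), with a 95% interval of -0.23 to 0.28. Without the 2 genes with the highest counts the difference was 0.39 in the DHX35-dTAG line and 0.41 in the GPATCH1-dTAG line.

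Insig2, which encodes the other INSIG protein, was counted far less often. The DHX35-dTAG libraries had 10.4 and 10.5 CPM in DMSO and 9.47 and 11.0 CPM in dTAG-13. The GPATCH1-dTAG libraries had 12.2 and 10.9 CPM in DMSO and 8.41 and 10.4 CPM in dTAG-13. The treatments overlapped in the first line, while in the second both dTAG-13 libraries were below both DMSO libraries by a margin smaller than the gap within either pair. The log2 difference was -0.03 (SE 0.16) in DHX35-dTAG cells, -0.31 (SE 0.15) in GPATCH1-dTAG cells and -0.17 (SE 0.11) across both lines. In GPATCH1-dTAG cells it was -0.15 without replicate 1 and -0.46 without replicate 2 in dTAG-13, and leaving out single libraries gave -0.13 to 0.08 in DHX35-dTAG cells and -0.24 to -0.07 across both lines. These values rest on 111 to 189 counts a library.

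Srebf2 encodes SREBP2, the family member known mainly for control of sterol genes. Its level in DHX35-dTAG cells was 300.5 and 273 CPM in DMSO and 312 and 297 CPM in dTAG-13. Its level in GPATCH1-dTAG cells was 276 and 276 CPM in DMSO and 306 and 298 CPM in dTAG-13. The dTAG-13 libraries were the higher ones in GPATCH1-dTAG cells, and in DHX35-dTAG cells replicate 1 in DMSO, the library that stood apart, reached into the dTAG-13 range. The log2 difference was 0.09 (SE 0.08) in DHX35-dTAG cells, 0.13 (SE 0.08) in GPATCH1-dTAG cells and 0.11 (SE 0.06) across both lines. Without that library it was 0.16 in DHX35-dTAG cells and 0.14 (SE 0.04) across both lines, and no remaining DMSO library overlapped the dTAG-13 libraries. Without replicate 2 of the same group it was 0.03 in DHX35-dTAG cells and 0.09 across both lines.

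Srebf1 encodes SREBP1, known mainly for control of fatty acid genes, and its isoforms were counted together. DHX35-dTAG cells had 96.9 and 81.1 CPM in DMSO and 90.9 and 81.7 CPM in dTAG-13. GPATCH1-dTAG cells had 89.9 and 81.4 CPM in DMSO and 98.2 and 93.1 CPM in dTAG-13. The treatments overlapped in DHX35-dTAG cells and not in GPATCH1-dTAG cells, and DMSO levels of both lines spanned nearly the whole range. The log2 difference was -0.04 (SE 0.11) in the first line, 0.16 (SE 0.11) in the second and 0.06 (SE 0.08) across both. On leaving out single libraries it ran from -0.16 to 0.09 in the first line, from 0.08 to 0.23 in the second and from 0.01 to 0.13 across both. Srebf1 overlaps Rai1 on the opposite strand, which had 360 to 556 counts a library, and the strand setting of the counting is not given in the sources used here, so its level is uncertain. Genes on the opposite strand also overlap Insig2 (Gm37174, 6 to 20 counts a library) and Scap (5830462I19Rik, 3 to 16 counts).

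Scap encodes the escort protein. Libraries of DHX35-dTAG cells gave 69.9 and 67.0 CPM in DMSO and 70.0 and 58.3 CPM in dTAG-13. Libraries of GPATCH1-dTAG cells gave 64.8 and 65.1 CPM in DMSO and 70.6 and 70.2 CPM in dTAG-13. A single dTAG-13 library, replicate 2 of DHX35-dTAG cells, was lower than the rest, and the remaining libraries lay within a narrow band. The log2 difference was -0.09 (SE 0.10) in DHX35-dTAG cells, 0.12 (SE 0.10) in GPATCH1-dTAG cells and 0.01 (SE 0.07) across both lines. Without the low library the value was 0.04 in DHX35-dTAG cells and 0.08 across both lines, and all remaining dTAG-13 libraries were above all DMSO libraries, by a narrow margin. Without the other dTAG-13 library of that line it was -0.23 there and -0.02 across both lines.

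Stard4 encodes a soluble carrier that moves sterols between membranes. Among DHX35-dTAG libraries its level was 51.9 and 44.7 CPM in DMSO and 45.7 and 50.1 CPM in dTAG-13. Among GPATCH1-dTAG libraries its level was 43.6 and 47.6 CPM in DMSO and 52.0 and 56.9 CPM in dTAG-13. The treatments were mixed in the first line and separate in the second, where dTAG-13 was higher. The log2 difference was -0.01 (SE 0.11) in the first line, 0.26 (SE 0.11) in the second and 0.12 (SE 0.09) across both. The responses of the lines differed by 0.27 (SE 0.16), with a 95% interval of -0.09 to 0.62. Without the library that stood apart, the first line had 0.10, both lines together 0.20 and the difference of responses fell to 0.16, while without the other DMSO library of that line it was 0.36. Across both lines the value was 0.07 without replicate 1 of GPATCH1-dTAG cells in DMSO and 0.07 without their replicate 2 in dTAG-13.

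Mylip encodes a ubiquitin ligase, a target of LXR, that marks lipoprotein receptors for breakdown. For DHX35-dTAG cells the values were 5.02 and 5.20 CPM in DMSO and 4.44 and 3.71 CPM in dTAG-13. For GPATCH1-dTAG cells the values were 4.33 and 3.00 CPM in DMSO and 2.66 and 3.52 CPM in dTAG-13. DMSO was the higher treatment in DHX35-dTAG cells, and the treatments overlapped in GPATCH1-dTAG cells. The log2 difference was -0.33 (SE 0.24) in the first line, -0.27 (SE 0.25) in the second and -0.30 (SE 0.16) across both. With 34 to 81 counts a library, Mylip was the least precise of the 8, and its value in GPATCH1-dTAG cells was 0.04 without replicate 1 in DMSO and -0.50 without replicate 2. Leaving out single libraries gave -0.46 to -0.20 in DHX35-dTAG cells and -0.39 to -0.19 across both lines.

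Abca1 encodes the membrane transporter that passes cholesterol to apolipoproteins at the cell surface, and it is a target of LXR. Levels in DHX35-dTAG cells were 61.7 and 67.4 CPM in DMSO and 59.9 and 60.1 CPM in dTAG-13. Levels in GPATCH1-dTAG cells were 87.7 and 86.0 CPM in DMSO and 87.1 and 86.4 CPM in dTAG-13. All 4 GPATCH1-dTAG libraries were above all 4 DHX35-dTAG libraries, and within GPATCH1-dTAG cells the treatments were nearly level. The log2 difference by treatment was -0.11 (SE 0.08) in DHX35-dTAG cells, -0.00 (SE 0.08) in GPATCH1-dTAG cells and -0.05 (SE 0.06) across both lines. In DHX35-dTAG cells it was -0.17 without the library that stood apart and -0.03 without the other DMSO library, and across both lines it was -0.01 without the latter.

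Per kilobase of annotated exon, the order of mean levels over the 8 libraries was Srebf2 (40.7 ± 2.12 CPM per kb), Insig1 (23.9 ± 3.57), Srebf1 (15.8 ± 1.24), Scap (9.00 ± 0.569), Stard4 (8.78 ± 0.802), Abca1 (7.19 ± 1.29), Insig2 (3.00 ± 0.323) and Mylip (1.23 ± 0.283), each with the SD over n = 8 libraries. The range of Scap, 7.83 to 9.49 CPM per kb, lay within that of Stard4, 7.80 to 10.2, and Abca1, at 5.78 to 8.46 CPM per kb, reached into the ranges of both. The other neighbours in this order did not overlap in any library. These SDs include the differences between treatments and lines. Srebf2 shares its strand with the unclassified gene Gm49502, which lies over it and had 53 to 91 counts a library, and with the microRNA gene Mir33, which had 0 to 1.

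The treatment comparisons are the ones from which the genes were chosen, so the counts that follow are set beside the share of all tested genes and nothing is read from them. Across both lines, 1 of the 8 genes, Insig1, was higher in dTAG-13 with no overlap between 4 and 4 libraries and 0 were lower, where 1.03% of the 16371 tested genes were higher and 1.22% lower in that way. In DHX35-dTAG cells, 1 was higher (Insig1) and 2 lower (Mylip and Abca1) with no overlap between 2 and 2 libraries, against 14.6% and 14.1% of tested genes. In GPATCH1-dTAG cells, 5 were higher (Insig1, Srebf1, Srebf2, Scap and Stard4) and 1 lower (Insig2), against 21.5% and 20.3%.

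At an adjusted p under 0.05 in the quasi-likelihood test of edgeR with Benjamini-Hochberg adjustment over all tested genes, 0 of the 8 genes and 0% of tested genes were called across both lines. At an unadjusted p under 0.05 there were 587 genes, 1 of them one of the 8, and DESeq2 called 4 genes, of which Insig1 was 1. In DHX35-dTAG cells edgeR called 0 of the 8 and 0% of tested genes, with 882 genes at an unadjusted p under 0.05, Insig1 among them, and 1 gene by DESeq2, not one of the 8. In GPATCH1-dTAG cells edgeR called 0 of the 8 and 0%, with 486 at an unadjusted p under 0.05, Insig1 and Stard4 among them, and 0 by DESeq2. For the interaction of line and treatment edgeR called 0 of the 8 and 0%, with 639 at an unadjusted p under 0.05 and 9 by DESeq2, none of either among the 8.

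The comparison between the lines was not the one from which the genes were chosen, and it was tested. The genes were still chosen with earlier results of these data known. In DMSO, the quasi-likelihood test of edgeR with Benjamini-Hochberg adjustment called 0 of the 8 genes and 0.0916% of tested genes. At an unadjusted p under 0.05 there were 2116 genes, 1 of the 8 among them (Abca1), and DESeq2 called 47 genes, none of the 8. The log2 difference of Abca1, GPATCH1-dTAG minus DHX35-dTAG, was 0.43 (SE 0.08) in DMSO, with an adjusted p of 0.169 in edgeR, and 0.53 (SE 0.08) in dTAG-13, with an adjusted p of 0.0936. In dTAG-13 edgeR called 15 genes (0.0916%) and DESeq2 48 (0.293%), Abca1 among the latter at an adjusted p of 0.0185. With no expression filter the difference in dTAG-13 was 0.55, with an adjusted p of 0.0025 in edgeR, where 0.484% of tested genes passed. Without replicate 1 of DHX35-dTAG DMSO it was 0.53. Over all alternatives its adjusted p reached 0.999. Leaving out either DHX35-dTAG DMSO library leaves 1 in that group, which is assumed to vary like the other groups, so nothing is read from the calls made then. The difference in DMSO was 0.37 without replicate 1, with an adjusted p of 0.0257 in edgeR, where 0.71% of tested genes passed, and 0.50 without replicate 2, with an adjusted p of 7.52e-05, where 34.3% passed. Over all alternatives the adjusted p of this difference lay between 7.52e-05 and 0.827.

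With both treatments together, a comparison added after the values of Abca1 had been seen, the quasi-likelihood test of edgeR with Benjamini-Hochberg adjustment called 1 of the 8 genes between the lines, against 0.782% of tested genes. Abca1 had a mean of 62.3 ± 3.49 CPM in DHX35-dTAG cells and 86.8 ± 0.741 CPM in GPATCH1-dTAG cells (SD over 4 libraries each). Its log2 difference was 0.48 (SE 0.06, 95% interval 0.35 to 0.61), a ratio of 1.39, with an adjusted p of 0.00553 in edgeR, and it was higher in 4 of 4 GPATCH1-dTAG libraries than in any DHX35-dTAG library. With no overlap between 4 and 4 libraries, 1 of the 8 genes was higher and 0 were lower in GPATCH1-dTAG cells, against 5.62% and 6% of tested genes. Without replicate 1 of GPATCH1-dTAG cells in DMSO, the difference was 0.49 and the adjusted p in edgeR 0.0509, which missed the threshold. Without any 1 of the 4 dTAG-13 libraries or without replicate 2 of GPATCH1-dTAG cells in DMSO, it was 0.0361 to 0.0481 in edgeR, and the lowest over all alternatives was 2.79e-07 in DESeq2, which called 1.39% of tested genes. The share of tested genes called ran from 0.151% to 5.95% on leaving out single libraries.

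Mylip stood at 4.59 ± 0.671 CPM in DHX35-dTAG cells and 3.38 ± 0.726 CPM in GPATCH1-dTAG cells (SD over 4 libraries each), and the lines overlapped. Its log2 difference between the lines with both treatments together was -0.43 (SE 0.16), which did not pass the threshold, with an adjusted p of 0.26 in edgeR. For the other 6 genes this difference lay between -0.03 for Srebf2 and 0.05 for Stard4, with SEs of 0.05 to 0.11. Without the library that stood apart it was 0.12 (SE 0.05) for Srebf1 and 0.12 (SE 0.06) for Stard4, neither of them past the threshold in edgeR (adjusted p 0.211 and 0.289, where over all alternatives they reached 0.998 and 0.996).

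Some cell type markers also stood at different levels in the lines. The summed level of 6 primitive endoderm markers was 6.42, 7.63, 8.28 and 7.59 CPM in the DHX35-dTAG libraries and 8.40, 9.00, 8.47 and 9.85 CPM in the GPATCH1-dTAG libraries, which did not overlap but lay close. Their most abundant gene was Dab2, at a mean of 1.95 CPM, 5 of the 6 were tested, and none was at 0 everywhere. Over these 5, the difference between the lines ran from -0.49 (SE 0.23) for Sox7 to 0.74 (SE 0.23) for Dab2, which had the smallest adjusted p of them in edgeR, 0.188. The stem cell marker sum was 5014 to 5211 CPM in DHX35-dTAG cells and 4856 to 4943 CPM in GPATCH1-dTAG cells. Over all 22 tested markers, edgeR with Benjamini-Hochberg adjustment called 2 between the lines with both treatments together, against 0.782% of all tested genes. They were Gata3, a trophoblast transcription factor, at a log2 difference of 1.04 (SE 0.16, adjusted p 0.0178 in edgeR), and the stem cell gene Utf1 at -0.49 (SE 0.08, adjusted p 0.0305). Of the other stem cell markers, none of them called, Pou5f1 (-0.24), Sox2 (-0.14), Esrrb (-0.13) and Zfp42 (-0.02) had the same sign as Utf1, and Klf4 (0.23), Nanog (0.05) and Tfcp2l1 (0.04) the opposite one. Tfap2c, the most abundant of the trophoblast markers at a mean of 29.1 CPM, lay in the other direction at -0.36 (SE 0.08) and did not pass in edgeR (adjusted p 0.0822). The summed levels of 4 trophoblast markers (36.2 to 45.1 CPM), 4 neural markers (87.7 to 97.9 CPM) and 6 fibroblast markers (2.56 to 5.75 CPM) overlapped between the lines. The part of these differences in the Abca1 result was not tested.

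**Figure D1:**
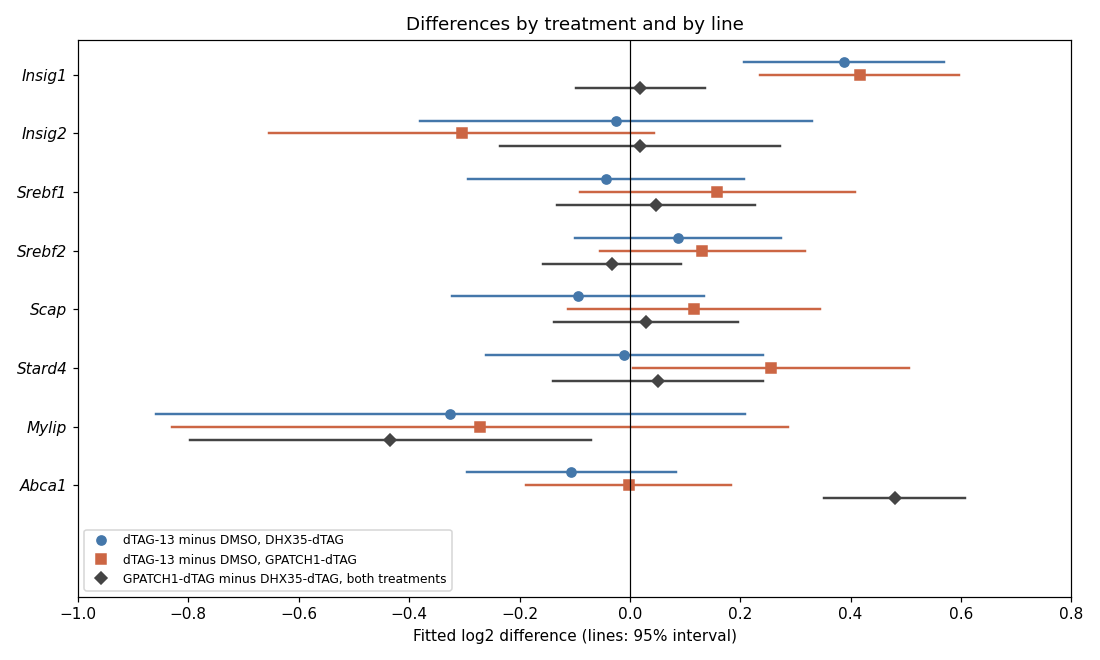
Fitted log2 differences of the 8 genes (x axis, points) with 95% intervals (lines) for dTAG-13 minus DMSO in each line and for GPATCH1-dTAG minus DHX35-dTAG with both treatments together. Insig1 lies at 0.39 and 0.42 for the treatment and Abca1 at 0.48 for the line.

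Among 10555 other tested genes with a mean of at least 5 CPM, Rdh11, Aacs and Cyp51 were among the 5 whose log2 CPM over the 8 libraries was most like that of Insig1, with Pearson r of 0.957, 0.957 and 0.938. Rdh11 encodes a retinol dehydrogenase, Aacs an enzyme that activates acetoacetate for lipid synthesis and Cyp51 the lanosterol demethylase of sterol synthesis. Rdh11 stood at 14.7 to 16.3 CPM in DMSO and 18.3 to 20.1 CPM in dTAG-13, Aacs at 28.1 to 30.4 and 33.5 to 38.0 CPM, and Cyp51 at 45.8 to 52.0 and 61.1 to 69.9 CPM. For each of the 3, every dTAG-13 library exceeded every DMSO library, which follows from their choice by likeness to Insig1. Of the other members, Srebf2 was most like Insig1, with r of 0.79, and Insig2 least, with r of -0.58. These correlations describe 8 libraries that share their scaling and fall into treatment and line groups.

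The genes most like Abca1 were She (r 0.990), Dmgdh (0.981), Fstl1 (0.975), Erdr1 (0.974) and Gpx2 (0.973). All of them were higher in the GPATCH1-dTAG libraries, which follows from their choice in the same way. The log2 difference between the lines with both treatments together ranged from 0.14 (SE 0.05) for She, which did not pass the threshold, to 3.04 (SE 0.10) for Erdr1, and their differences by treatment across both lines lay between -0.04 and 0.01. Of the other members, Scap had the highest r with Abca1, 0.21, and Mylip the lowest, -0.62.

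Beside the 8 genes, lists of related genes give a scale for the treatment differences. These lists too were chosen with earlier results of these data known. Their counts are therefore a description, set beside the share of all tested genes, and nothing is read from them. The median log2 difference across both lines was 0.03 over the 8 genes (0.0012 to 0.095 on leaving out single libraries), 5 of them positive, and -0.01 over all tested genes, 7873 of 16371 positive. For 20 sterol synthesis enzymes it was 0.30, with 18 positive and 9 higher with no overlap, and for 10 fatty acid synthesis enzymes 0.15, with 9 positive and 2 higher with no overlap, against 1.03% of all tested genes higher in that way. For 16 genes of uptake and intracellular transport it was 0.01 with 8 positive, for 10 genes of sensing and turnover 0.01 with 6 positive, and for the 9 tested of 10 LXR and efflux genes 0.05 with 7 positive. Smpdl3a, the remaining efflux gene, was too low to test. Of the 65 tested genes of these 5 lists, edgeR with Benjamini-Hochberg adjustment called 0 across both lines. At an unadjusted p under 0.05 there were 17, where 3.59% of all tested genes were under it. They were 12 of 20 sterol synthesis enzymes, 4 of 10 fatty acid synthesis enzymes and 1 of 16 uptake genes. None of the sensing or of the LXR and efflux genes was among them. DESeq2 called 2 of the sterol synthesis enzymes and 1 uptake gene, against 0.0244% of all tested genes. Between the lines with both treatments together edgeR called 0 of the 65 genes, with 11 at an unadjusted p under 0.05 and 0 by DESeq2. Of all tested genes 15.3% had an unadjusted p under 0.05, a share close to that of the lists.

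Over the last 3 lists, 35 genes were tested, 21 had a positive difference across both lines, 1 was higher in dTAG-13 with no overlap and 0 were lower in that way, against 1.03% and 1.22% of all tested genes. Nceh1, a cholesterol ester hydrolase, had a log2 difference of 0.18 (SE 0.08), from 16.7 ± 1.80 CPM in DMSO to 18.9 ± 1.90 CPM in dTAG-13 (SD over 4 libraries each), and the efflux transporter Abcg1 had 0.14 (SE 0.12). At the lower end were Gramd1c, a sterol transfer protein, at -0.36 (SE 0.32), and Nr1h3, an LXR receptor, at -0.20 (SE 0.24). Gramd1c and Nr1h3 stayed at or below 1.06 CPM in every library.

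Promoter sequence was taken from RefSeq windows of 300 bases around RefSeq starts (GRCm38.p6), which matched every member other than Stard4. Both strands were searched for TCACNCCAC, a sterol regulatory element, for the CCAAT box by its name, for the Sp1 box with the letters GGGCGG, and for the E-box CACGTG, which SREBP proteins can also bind. TCACNCCAC was in no member window and in 1.24% of all 32851 windows. The shorter TCACNCCA, chosen after the promoters had been seen, was in 4.36% of windows and in that of Srebf2, 162 bases before the RefSeq start. CCAAT was in 37.4% of all windows and in windows of Insig1, Insig2, Srebf1, Srebf2 and Mylip. GGGCGG was in 35.7% of all windows and in windows of every matched member. CACGTG was in 7.15% of all windows and in those of Insig1, Scap and Abca1. Insig2, Srebf1 and Scap had several windows each, and a match in any of them was counted. A match describes letters only. Upstream stretches are shown for Insig1, for Srebf2, the member most like it over the libraries, and for Abca1, the gene called in the pooled comparison of lines, each ending before the GENCODE gene start, which for Insig1 and Srebf2 lies before the RefSeq start, with matches in capitals on either strand. They lie at chr5:28071162-28071362 on the plus strand, chr15:82147019-82147180 on the plus strand and chr4:53159896-53160145 on the minus strand, outside the exons of their own genes.
Insig1: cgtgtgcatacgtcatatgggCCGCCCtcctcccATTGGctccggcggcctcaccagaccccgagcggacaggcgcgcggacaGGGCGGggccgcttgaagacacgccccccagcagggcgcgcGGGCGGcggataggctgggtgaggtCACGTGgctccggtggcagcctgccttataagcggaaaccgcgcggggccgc
Srebf2: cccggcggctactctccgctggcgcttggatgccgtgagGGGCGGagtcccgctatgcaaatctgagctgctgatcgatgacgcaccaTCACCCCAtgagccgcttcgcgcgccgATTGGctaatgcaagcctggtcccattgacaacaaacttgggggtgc
Abca1: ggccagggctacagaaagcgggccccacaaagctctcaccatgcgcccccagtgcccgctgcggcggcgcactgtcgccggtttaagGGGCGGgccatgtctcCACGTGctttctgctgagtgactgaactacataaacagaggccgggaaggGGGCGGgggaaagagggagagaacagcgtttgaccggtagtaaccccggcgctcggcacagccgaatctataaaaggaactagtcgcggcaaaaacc
In the Insig1 stretch the capitals mark, in order, an Sp1 box and a CCAAT on the other strand, 2 Sp1 boxes and the E-box. In that of Srebf2 they mark an Sp1 box, the shorter sterol element and a CCAAT on the other strand, and in that of Abca1 2 Sp1 boxes with the E-box between them.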

How the data were processed

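RNA was measured in 8 libraries, 2 in each of 4 groups of line and treatment. The deposited tables, 1 a library, hold unnormalized counts by gene that the authors made after quality control (FastQC 0.11.9), trimming (Trim Galore 0.6.6) and alignment with STAR 2.7.5c to mouse (mm10) and human genomes, as named in the submitters' processing notes. The counting program, annotation and strand setting are not given in the sources used here, and the human DLD-1 spike-in was not used here. The 8 genes and all gene lists were chosen with earlier results of these data known.

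From the counts, edgeR 4.0.16 in R 4.3.3 (TMM, filterByExpr on the 4 groups, glmQLFit, glmQLFTest, Benjamini-Hochberg adjustment, threshold 0.05) fitted 1 term per group, or line and treatment for effects across both lines or both treatments. The common dispersion of 0.0125 corresponds to 11.2% variation between replicates. A standard error is the log2 difference divided by the square root of F. CPM used TMM-scaled library sizes, and log2 CPM a prior count of 2. Positions and exon lengths came from GENCODE M21 and promoters from RefSeq. The steps were tested on simulated data. Replicates were not duplicates: the chi-square per gene between them was 4.93 to 121, against about 1 for sampling noise. It is a mean over genes on library totals without TMM and includes the 2 genes with the highest counts. The 121 was for GPATCH1-dTAG DMSO, where those 2 genes took 4.23% and 20.9%, so it need not describe a typical gene.

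Beyond the 8 genes, those named are the 3 largest and 3 smallest differences across both lines over the uptake, sensing and efflux lists, and the 5 genes most like Insig1 and Abca1 each. Of these, 2 pathway genes and 2 of the genes most like Insig1 are not reported here. Gata3 and the other cell type markers given with a difference were named after their values were seen. Alternatives were DESeq2 1.42.0, its size factors in edgeR, each library left out, a replicate block, no expression filter, a minimum of 10 counts per library, dropping the 2 most counted genes, and fits limited to the 4 libraries of a comparison. The comparison of lines with both treatments together was chosen after seeing the data.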

Additional observations from a re-analysis of the deposited data

How the results depend on the processing

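The number of the 8 genes called was 0 in edgeR for each treatment comparison, for the difference between responses and between the lines in DMSO, and a few settings moved it. The genes were chosen from the treatment comparisons, so nothing is read from these counts for them or for the difference between responses. For settings named singly, the share of all tested genes called is given in brackets. Across both lines the number was 1 in DESeq2 (0.0244% of genes) and 1 with no expression filter (0.245%). It was 1 for GPATCH1-dTAG cells with only the 4 libraries compared (0.803%). Between the lines in DMSO it was 1 with no expression filter (3.02%) and 1 with both treatments together (0.782%), which was chosen after seeing the data. Leaving out some single libraries also moved the number in these comparisons, in DHX35-dTAG cells and for the difference between responses. That leaves 1 library in a group, so nothing is read from the calls of the 8 genes made then. Of the 8, those higher in dTAG-13 with no overlap across both lines numbered 2 with no expression filter (Insig1 and Srebf2, against 0.864% of genes) and 1 to 2 on leaving out libraries, against 1.70% to 2.85%. With the replicate block, the number of the 8 called stayed at 0 in the treatment comparisons, for the difference between responses, where edgeR called 2 genes in all, and between the lines in DMSO, the median difference across both lines was 0.04, and Abca1 differed between lines by 0.48. Without the block, leaving out libraries gave a median of 0.0012 to 0.095. The deviations of same-numbered libraries correlated at 0.0372 to 0.23, and the numbers were not treated as pairs. The Abca1 difference between lines was 0.49 without replicate 1 of GPATCH1-dTAG cells in DMSO, where it missed the threshold, and spanned 0.46 to 0.52 over the libraries left out. The causes were not tested.

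Differences between the lines in DMSO near 0 changed sign. That of Insig1 was -0.00218 with a minimum of 10 counts per library and ran from -0.0221 to 0.0443 on leaving out libraries. That of Srebf1 ran from -0.166 to 0.0832, of Srebf2 from -0.114 to 0.0181 and of Stard4 from -0.179 to 0.0258. With replicate 2 of the DHX35-dTAG DMSO group left out, only the library that stood apart remains in that group, assumed to vary like the others, and edgeR called 4947 genes (28.8% of those tested) for DHX35-dTAG cells, 3588 (20.9%) for the difference between responses and 5886 (34.3%) between the lines in DMSO, so nothing is read from the calls of the 8 genes there. Over single genes, 13 of 352 treatment values under the alternatives moved by 1 SD or more and 17 took the opposite sign, those of Scap, Stard4, Srebf1, Insig2, Mylip and Abca1. Of 148 line values 6 took the opposite sign. Compared with the main fit, 3 newly passed the threshold and 1 newly missed it. No count without overlap was made for the replicate block or for only the 4 libraries compared, and the latter could not give values across both lines. Depth limits Mylip and Insig2 most.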
